A study of Mus musculus with 360 samples.

Results

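The 9 genes described here are 6 matrix metalloproteinases (Mmp2, Mmp9, Mmp11, Mmp13, Mmp14 and Mmp16) and 3 of their tissue inhibitors (Timp1, Timp2 and Timp3), out of 24015 genes in the tables. They were picked by name from the read counts of these same cells, and Mmp9 was picked for its reads in sagittal cells, so their levels are given as a description and no difference among them was tested. The counts came from 360 sorted single cells of CD-1 wild-type mice at postnatal day 3. They were taken from 3 sutures of the skull and 1 bone of the leg, namely the suture between the frontal bones (posterior frontal, PF), the one between the parietal bones (sagittal, SAG), the coronal one (COR) and the tibial growth plate (GP). The PF suture fuses early in life, while SAG and COR remain patent. The suture samples were dissected as a complex of bone fronts, suture mesenchyme, dura mater and periosteum, and all cells were sorted as CD51+ and CD200+ cells without blood, endothelial and other lineage proteins. Animals were pooled and none was named for any cell, so each tissue counted as 1 sample, its 2 plates gave the only spread within it, and plate and tissue cannot be told apart.

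Matrix metalloproteinases are zinc enzymes made as inactive precursors, and together they cut collagens, proteoglycans and other matrix proteins as bone and cartilage are remodelled. Mmp2 and Mmp9 are gelatinases, Mmp13 is the main interstitial collagenase of the mouse, Mmp11 is stromelysin-3, and Mmp14 and Mmp16 sit in the cell membrane. The TIMPs block the active enzymes, and Timp2 also helps Mmp14 to activate pro-Mmp2 at the cell surface. In the skeleton Mmp9 is best known from osteoclasts, the cells that resorb bone, and Mmp13 from osteoblasts and hypertrophic chondrocytes.

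Of the 360 cells, 325 had at least 500 genes with a read and 10000 reads and were kept, 87 from PF, 86 from SAG, 74 from COR and 78 from GP. Levels are reads summed over the cells of a tissue or plate, per 1000000 reads (CPM), with those of the ribosomal RNA gene Rn45s left out of the total. A level in such a sum cannot tell more cells with a gene from more RNA of it in each cell, and shares of cells with a read are given for that reason. SAG plate 2, with 56 cells, stood apart from the other plates. Rn45s took 86.8% of its reads, against 20.2% to 31% on the other 7 plates, and its cells had a median of 874 genes with a read against 2110.5 to 3866 elsewhere. Ratios that involve SAG are therefore given with and without that plate where it changed the call, and counts of cells are given by plate where the plates differed. For 1 SAG cell the description named a PF plate. Median depth per cell without Rn45s ran from 125830 reads on PF plate 1 to 511698 on PF plate 2. Cd200 was read in 16.1% to 68.8% and Itgav, which encodes CD51, in 5.36% to 68.8% of the cells of a plate, while Ptprc, which encodes CD45, was read in at most 3.77% of the cells of any plate and Tek, which encodes Tie2, in none. The labels call the cells skeletal stem cells, and 8 osteoblast markers, summed, made up 101155 to 119381 CPM in PF, GP and COR and 33422 CPM in SAG, with 61593 CPM on SAG plate 1 and 14692 on plate 2.

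Mmp9 was the member that differed most between tissues. It was read in 43 of 86 SAG cells (50%, 95% exact binomial interval 39% to 61%), in 9 of 78 GP cells (11.5%, 5.41% to 20.8%), in 6 of 74 COR cells (8.11%, 3.03% to 16.8%) and in 4 of 87 PF cells (4.60%, 1.27% to 11.4%). Its summed level was 4063 CPM in SAG, 208 CPM in GP, 50.1 CPM in COR and 17.5 CPM in PF. Mmp2 and Timp2 were also higher in SAG than in each of the other tissues on every plate. Timp1 was lowest in GP and on SAG plate 2. Mmp13 differed widely between the plates of PF, SAG and GP, and Mmp14 was highest on SAG plate 1 and lowest on SAG plate 2.

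**Figure D1:**
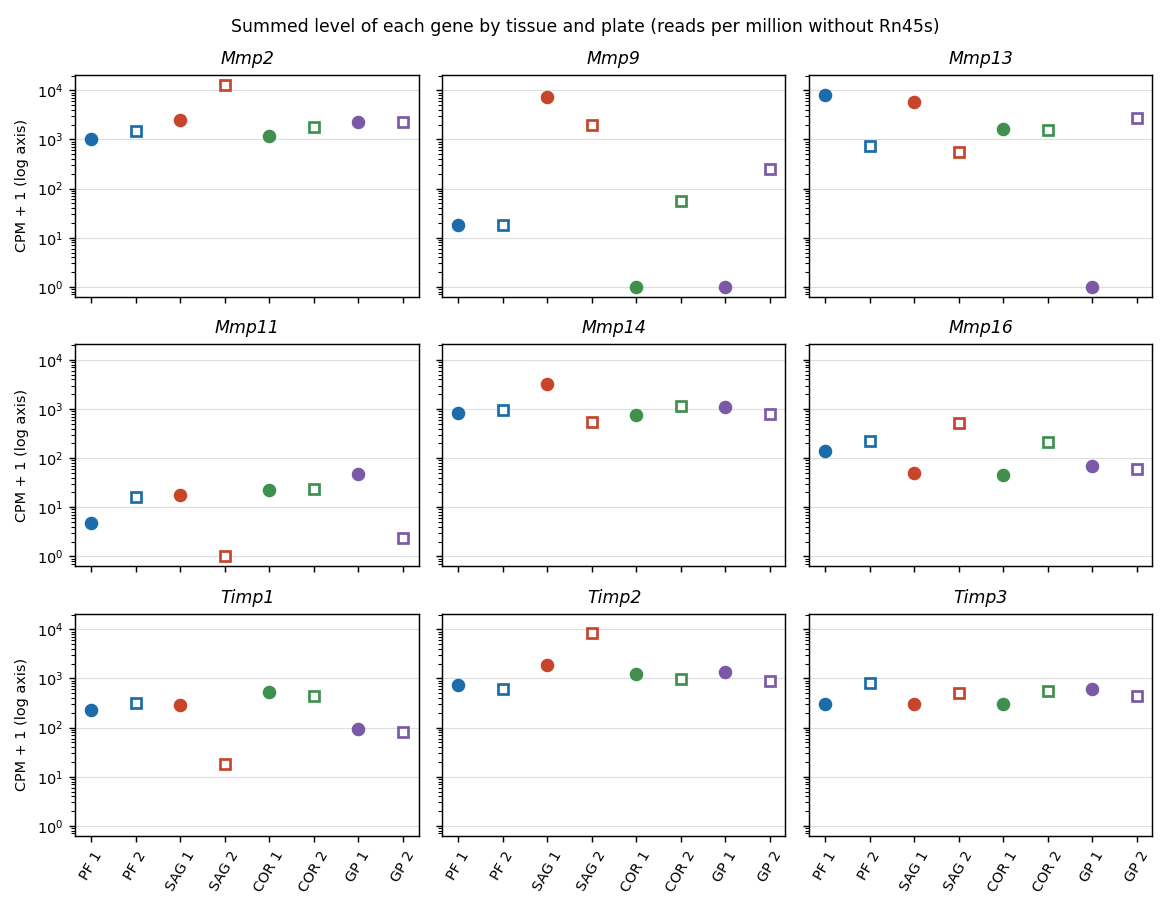
Summed level of each of the 9 genes on the 8 plates, as CPM + 1 without Rn45s on a log axis, with filled circles for plate 1 and open squares for plate 2 of each tissue. The SAG points of Mmp9 (7222 and 1963 CPM) lie far above all others, while for Mmp13 the plates of PF (8169 and 727 CPM) and of GP (0 and 2779.8 CPM) lie far apart.

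A ratio between 2 tissues is log2 of (CPM+1) over (CPM+1), and a gene counted as higher in a tissue where this ratio was at least 1 in size and all 4 ratios of a plate of one tissue to a plate of the other had its sign. Among the 10686 genes that reached 10 CPM in any tissue, this held for 29.2% between PF and SAG, 11.9% between PF and COR, 16.2% between PF and GP, 31.5% between SAG and COR, 30.7% between SAG and GP, and 13.4% between COR and GP. Among the 9 members it held for 3, 0, 2, 5, 3 and 1 genes in the same order. Since the members were chosen from these same levels, nothing is read from their counts against the background. The median ratio of the members was -0.64 for PF over SAG (all genes 0.30), -0.29 for PF over COR (0.01), 0.13 for PF over GP (0.09), 0.71 for SAG over COR (-0.30), 0.98 for SAG over GP (-0.25) and 0.18 for COR over GP (0.06). The median over all genes thus lay 0.25 to 0.30 away from 0 in the pairs with SAG, and a member's ratio relative to it is larger in SAG by that amount.

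Without SAG plate 2 the rule rested on 2 plate ratios in a pair with SAG. It then held for 33.2% of 10438 genes between PF and SAG, for 31.8% between SAG and COR and for 33.6% between SAG and GP. Among the members it held for 5, 3 and 4 genes. Mmp9 met it in all 3 of these pairs with the plate and without it. Mmp2 met it in all 3 with the plate and in none without it, and Timp2 kept only its difference from PF.

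**Figure D2:**
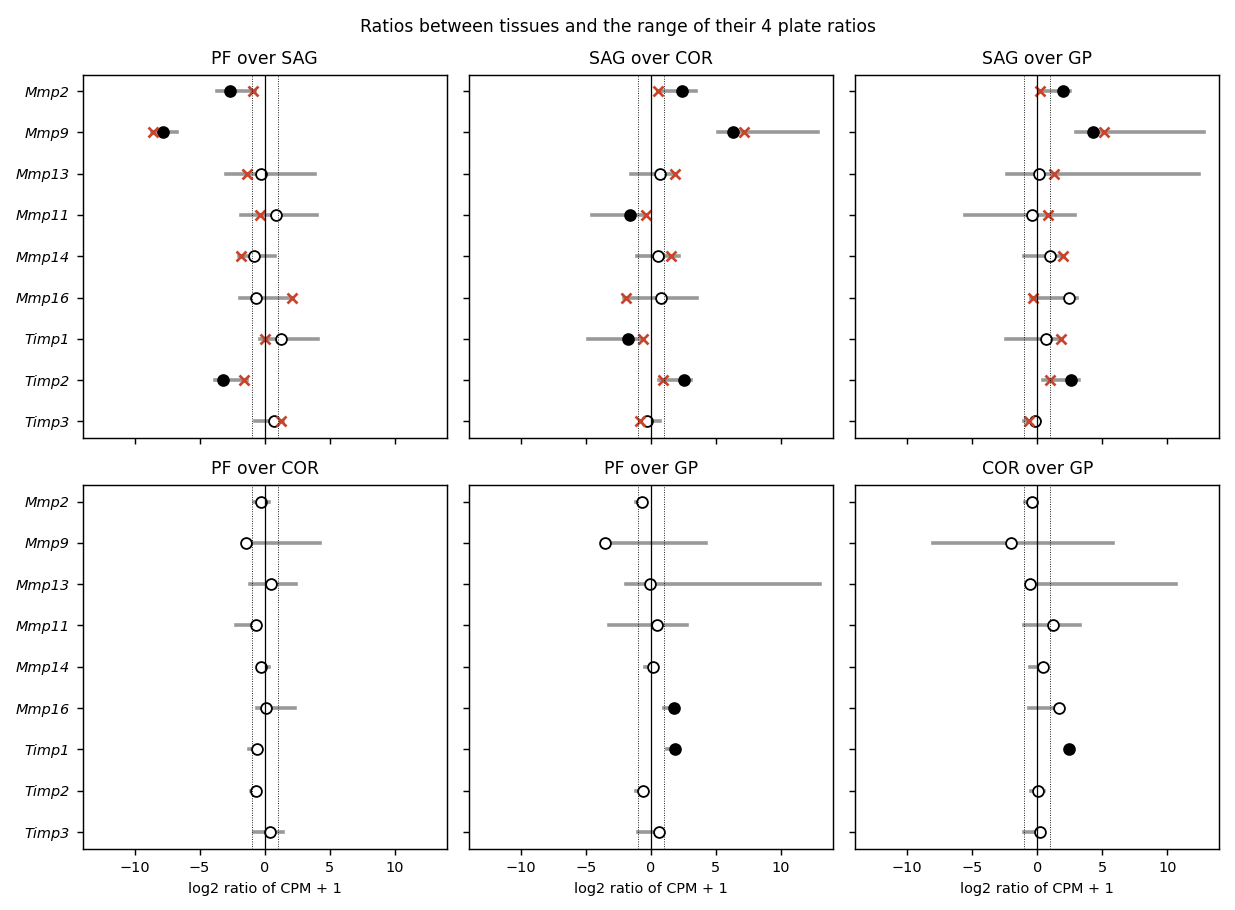
Log2 ratio of each member between 2 tissues for the 6 pairs (circles, filled where the call rule was met), with grey lines over the range of the 4 plate ratios and red crosses for the ratio without SAG plate 2. Mmp9 lies beyond the dotted lines at 1 and -1 in each SAG pair with and without the plate, while the cross of Mmp2 moves inside them, to -0.86, 0.57 and 0.18.

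Mmp2, the gelatinase that also acts on basement membrane collagen, was read in most cells of every tissue. Its level was 1007 CPM on PF plate 1 and 1489 on plate 2, 2534 on SAG plate 1 and 13044 on plate 2, 1187 and 1767 on the COR plates, and 2231 and 2239 on the GP plates. Both SAG plates were above all 6 others, plate 1 by a small margin over GP and plate 2 by far. Over both plates SAG was 6.34-fold higher than PF (log2 ratio PF over SAG -2.66, plate ratios -3.69 to -0.77), and the ratios of SAG over COR and GP were 2.37 and 1.98. The share of cells with a read differed less, at 97.3% in COR, 95.3% in SAG, 87.4% in PF and 82.1% in GP, and all 43 SAG cells with Mmp9 reads had Mmp2 reads too. The median cell of SAG plate 2 had 12272 CPM of Mmp2, that of SAG plate 1 had 1775, and the medians of the other 6 plates ran from 855 to 1635. With Rn45s counted in the total, SAG stayed above the others by 0.77, 0.47 and 0.17 on the log2 scale and the rule was met in none of the 3 pairs.

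The SAG cells with Mmp9 were spread over both plates. On plate 1 it was read in 21 of 30 cells (70%, 50.6% to 85.3%) and on plate 2 in 22 of 56 (39.3%, 26.5% to 53.2%). The other plates had 1 of 34 and 3 of 53 cells with a read in PF, 0 of 16 and 6 of 58 in COR, and 0 of 20 and 9 of 58 in GP. A count of 0 allows a share of up to 18.8% on COR plate 1 and 15% on GP plate 1, and these limits, like all intervals here, cover counting error only. Thinning each cell to 100000 reads other than Rn45s gave 66.2% and 35.3% on the SAG plates, and counting only cells with at least 10 reads gave 56.7% and 30.4%.

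The level of Mmp9 rested on few cells. On SAG plate 1 it was 7222 CPM from 49642 reads, of which 1 cell gave 25760 (51.9%), and 3616 CPM without that cell. SAG plate 2 had 1963 CPM from 20299 reads, of which the top cell gave 6645 (32.7%), and 1339 CPM without it. Both plates thus stayed far above the next plate, GP plate 2, with 252 CPM, where 1 cell gave 65.2% of the reads and 90.2 CPM were left without it. PF had 17.2 and 17.6 CPM, and COR plate 2 had 55.7. No read fell on COR plate 1, which allows up to 0.927 CPM, or on GP plate 1, which allows up to 0.607. SAG over both plates was 219.8-fold higher than PF (log2 ratio PF over SAG -7.78, plate ratios -8.63 to -6.73). The log2 ratio was 6.31 for SAG over COR and 4.28 for SAG over GP, and the highest plate ratio of 12.82 in both was set by the pseudocount, since it was taken against a plate at 0. With SAG plate 2 left out the ratios were -8.61 for PF over SAG, 7.14 for SAG over COR and 5.11 for SAG over GP. Among cells with a read, the median was 1831 CPM for SAG, 547 for COR, 412 for GP and 332 for PF.

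**Figure D3:**
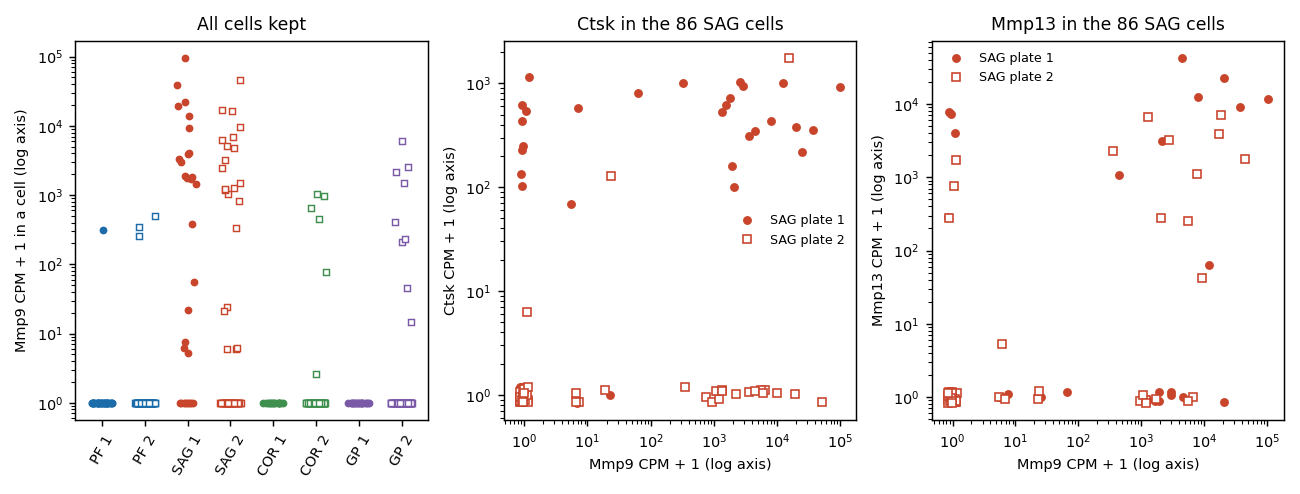
Mmp9 in each of the 325 cells by tissue and plate (left), and Mmp9 against Ctsk (middle) and Mmp13 (right) in the 86 SAG cells, all as CPM + 1 on log axes with a small random shift of points in the 2 right panels. On SAG plate 1 Ctsk was read across cells with and without Mmp9 (19 of 21 and 8 of 9), while on plate 2 nearly all cells lie at the bottom (2 of 22 and 1 of 34).

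Other genes known from osteoclasts were looked for in the same cells. Cells with the blood cell protein CD45 had been left out by the sort. Low counts of genes particular to osteoclasts were thus at least partly set in advance and test nothing. Acp5 encodes the tartrate-resistant acid phosphatase of osteoclasts and Ctsk encodes cathepsin K, their collagen-cutting protease. Acp5 was read in 2 of the 21 SAG plate 1 cells with Mmp9 and in 2 of the 9 without it, and in 0 of 56 cells of SAG plate 2, which allows a share of up to 5.36%. Its 150 SAG reads, all on plate 1, made 21.8 CPM there, against 23 and 98 CPM on the PF plates, 19.8 and 53.8 in GP, and 26.6 and 38.4 in COR. The level of Acp5 on SAG plate 1 thus lay within the range of the other tissues, and on SAG plate 2 it was 0. Ctsk was read in 19 of 21 SAG plate 1 cells with Mmp9 and in 8 of 9 without it, with summed levels of 512 and 519 CPM. On SAG plate 2 Ctsk was read in 2 of 22 cells with Mmp9 and in 1 of 34 without it. Over both plates the counts were 21 of 43 cells with Mmp9 and 9 of 43 without it, and 27 of these 30 cells were on plate 1. The cells with Mmp9 had a median depth of 183802 reads on plate 1 and 187950 on plate 2, against 293751 and 183151 for the cells without it. Ctsk was also read in 74.7% of PF, 90.5% of COR and 69.2% of GP cells, the tissues in which few cells had Mmp9.

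The 10 osteoclast markers listed for this purpose also hold Nfatc1, a transcription factor of osteoclast formation that other cells use too. On SAG plate 1 it was read in 12 of 21 cells with Mmp9, at 126 CPM, and in 3 of 9 without it, at 7.34 CPM. On SAG plate 2 it was read in 13 of 22 and 23 of 34 cells, at 1177 and 689 CPM. Its level was 83.9 CPM on SAG plate 1 and 882 on plate 2, against 2.78 to 77.1 on the other 6 plates. Of the 10 markers 6 had no read in SAG. Ocstamp and Dcstamp, which osteoclast precursors need to fuse, and Calcr, the calcitonin receptor, were at 0 on all 8 plates. After a sort against CD45, such counts of 0 are no test for osteoclasts. The summed level of the list was 620 and 934 CPM on the SAG plates and 460 to 1173 CPM on the other 6, and most of it was Ctsk on every plate but SAG plate 2.

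Markers of other blood cells that make Mmp9 had few reads in SAG. Cells with CD45 had been left out by the sort, so low counts of these markers were set in advance and test nothing. On SAG plate 2 few genes were read per cell (median 874), which lowers such counts further. Of 11 macrophage markers 10 were in the tables, and they summed to 8.29 CPM on SAG plate 1 and 0 on plate 2, against 6.18 to 53.6 CPM elsewhere. On SAG plate 1 a read of this list was found in 7 of 21 cells with Mmp9, at 5.65 CPM, and in 1 of 9 without it, at 13 CPM. The 10 neutrophil markers summed to 0 and 7.83 CPM on the SAG plates and 0.0410 to 5.61 CPM on those other plates that had any read of them. The reads on SAG plate 2 were those of Mmp8, the neutrophil collagenase, in 1 cell without Mmp9. Ptprc had no read in the 86 SAG cells, and Csf1r, the receptor of the macrophage growth factor, had 2. The 3 SAG plate 1 cells with the most Mmp9 (25760, 5805 and 5393 reads) held 0, 0 and 21 reads of Acp5, 267, 109 and 42 of Ctsk, 3774, 6424 and 1150 of Mmp13, and no read of Csf1r or Ptprc. The 3 highest cells of SAG plate 2 (6645, 2991 and 2841 reads) held 252, 1274 and 786 reads of Mmp13, 0, 0 and 317 of Ctsk, and none of Acp5, Csf1r or Ptprc. In these cells, picked for their Mmp9, it was thus read beside Mmp13 and with little or no Acp5. Over all of SAG plate 1, Mmp13 was read in 8 of 21 cells with Mmp9 and in 4 of 9 without it. On plate 2 it was read in 50% and 8.82%. The top Mmp9 cells of COR plate 2 and GP plate 2 also held Mmp13, with 1990 and 24550 reads, and 123 and 406 reads of Acp5.

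Cartilage genes were high in SAG as well. The 10 chondrocyte markers summed to 20969 and 14113 CPM on the SAG plates, to 518 and 4678 CPM in GP, and to 252 to 433 CPM on the 4 plates of PF and COR. All 10 had reads on both SAG plates. Col2a1, the main collagen of cartilage, was read in 18 of the 21 SAG plate 1 cells with Mmp9 and in 4 of the 9 without it, and on plate 2 in 16 of 22 and 18 of 34. The summed level of Col2a1 was nevertheless lower in the cells with Mmp9, at 5677 CPM against 16153 in the other cells on plate 1 and at 3644 against 9554 on plate 2. On plate 1 a single cell without Mmp9 gave 48.3% of all Col2a1 reads, so the lower level there rested on that cell. On plate 2 the top cell, also without Mmp9, gave 21.9%. Acan, which encodes aggrecan, was read in 12 of 21 and 4 of 9 cells on plate 1, and in 17 of 22 and 22 of 34 on plate 2. Other genes of the list differed. Matn1 went the other way, with 4 of 21 and 3 of 9 on plate 1, and 1 of 22 and 5 of 34 on plate 2. Col9a3 had 21 of 21 and 5 of 9, then 1 of 22 and 5 of 34. Col9a1 had 18 of 21 and 4 of 9, then 5 of 22 and 5 of 34. Sox9 had 14 of 21 and 4 of 9, then 18 of 22 and 27 of 34. The part of these genes in the Mmp9 result was not tested.

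In GP the 9 cells with Mmp9 were all on plate 2 and differed from the remaining 69 in other reads. The 69 include the 20 cells of plate 1, where no cell had Mmp9 or Mmp13. Mmp13 was read in 8 of the 9 and in 11 of the 69, Acp5 in 4 and 11, and Spp1, the bone matrix protein osteopontin, in 9 and 33. Some cartilage and bone genes were read more often too, Col2a1 in 5 and 16, Col9a1 in 5 and 7, and the bone sialoprotein gene Ibsp in 7 and 11. Other cartilage genes differed little, with Acan in 66.7% and 65.2% and Sox9 in 44.4% and 40.6% of these cells. Ctsk was read less often in the cells with Mmp9, in 4 of 9 against 50 of 69. The macrophage list was read in 6 of the 9 cells, at 223 CPM, and in 15 of the 69, at 18.4 CPM. Among the others of plate 2 alone it was read in 24.5%, at 18.9 CPM. The 3 GP cells with the most Mmp9 held no read of Csf1r or Ptprc. The highest of them (3868 reads of Mmp9) held 406 reads of Acp5, 24550 of Mmp13 and 3135 of Col10a1, the collagen of hypertrophic cartilage. In SAG, Spp1 was read in 6 of 21 cells with Mmp9 on plate 1 and 2 of 22 on plate 2, against 5 of 9 and 6 of 34 without it, and Col10a1 in none. Shares here were not compared by a test, and cells with Mmp9 in GP plate 2 had a median depth of 434277 reads against 404861 in the others of that plate.

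The collagenase Mmp13 was read in 96 of 325 cells. Its level was 8169 and 727 CPM on the PF plates, 5669.6 and 545 on the SAG plates, 1618 and 1575 in COR, and 0 and 2779.8 in GP. The tissue sums hid these differences between plates, at 2592 CPM for SAG, 2297 for GP, 2179.8 for PF and 1579.5 for COR, and no pair of tissues met the call rule with all plates. Without SAG plate 2, SAG was higher than COR (log2 ratio SAG over COR 1.84) and GP (1.30), the latter with 1 plate ratio against a GP plate at 0. In GP, 0 of 20 cells of plate 1 had a read, which allows a share of up to 15%, against 19 of 58 on plate 2 (32.8%, 21% to 46.3%). Single cells carried much of the reads. The top cell gave 57.1% on PF plate 1, 45.6% on SAG plate 1, 47.4% and 52.3% on the COR plates and 37.5% on GP plate 2, with up to 59281 CPM in 1 COR cell. The share of cells with a read was 41.9% for COR, 30.2% for SAG, 24.4% for GP and 23% for PF, and all 4 intervals overlap.

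Which other genes were read with Mmp13 differed between tissues. In GP, Col10a1 was read in 10 of 19 cells with Mmp13 and in 3 of 59 without it, and Ibsp, the bone sialoprotein gene, in 13 and 5. Col10a1 had no read on any PF or SAG plate or on GP plate 1, the plate that also had no Mmp13. In SAG, Mmp13 was read in 19 of 43 cells with Mmp9 and in 7 of 43 without it. This difference was that of plate 2, with 11 of 22 and 3 of 34 cells, while plate 1 had 8 of 21 and 4 of 9. Ibsp was read in 1 of 26 SAG cells with Mmp13. In PF, Ibsp was read in 10 of 20 cells with Mmp13 and in 17 of 67 without it. In COR, Alpl, the alkaline phosphatase of osteoblasts, was read in 28 of 31 cells with Mmp13 and in 32 of 43 without it. Ibsp in COR was read in 11 of 31 cells with Mmp13 and in 8 of 43 without it. Mmp13 in GP was thus found largely in cells with Col10a1 or Ibsp. In SAG 19 of its 26 cells had Mmp9 and 25 had no Ibsp, but Ibsp was read in only 13.3% of the SAG cells without Mmp13. Reads of Mmp13 beside Mmp9 were not particular to SAG. Mmp13 was read in 8 of 9 GP cells with Mmp9 and 15.9% of the others, and in 5 of 6 such COR cells and 38.2% of the others.

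Mmp14, the membrane enzyme that activates pro-Mmp2, was read in all 74 COR cells and in 87.4% of PF, 74.4% of SAG and 87.2% of GP cells. Its level was 810.4 and 932 CPM on the PF plates, 3263 and 552 on the SAG plates, 747 and 1146 in COR, and 1099 and 772 in GP. SAG plate 1 was above and SAG plate 2 below all others, so no pair with SAG met the rule. Without SAG plate 2, SAG was higher than PF (log2 ratio PF over SAG -1.84), COR (SAG over COR 1.56) and GP (SAG over GP 1.98), on both plates of each. On SAG plate 1, 20 of the 21 cells with Mmp9 had Mmp14 reads, at 4555 CPM, and 6 of the 9 others did, at 932 CPM. A similar difference was seen on plate 2, with 931 CPM in the cells with Mmp9 and 303 in the others.

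Mmp16, a membrane enzyme related to Mmp14, was read in 138 of 325 cells. It had 137 and 227 CPM on the PF plates, 49 and 509 on the SAG plates, 43.5 and 207 in COR, and 68.2 and 59 in GP. Both PF plates were above both GP plates (log2 ratio PF over GP 1.77, plate ratios 0.99 to 1.92), and this was the only pair of tissues in which Mmp16 met the rule with all plates. Its share of cells was 62.1% in PF (51% to 72.3%) and 32.1% in GP (21.9% to 43.6%). In SAG the plates went opposite ways, with the highest level of Mmp16 on plate 2 and one of the lowest on plate 1. PF was higher than SAG with SAG plate 2 left out (log2 ratio PF over SAG 2.07).

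Mmp11, which encodes stromelysin-3, was the member read in the fewest cells. Its level was 3.89 and 15.4 CPM on the PF plates, 16.7 and 0 on the SAG plates, 21.9 and 22 in COR, and 45.5 and 1.36 in GP. It was read in 37 of 325 cells, 9 of them among the 20 cells of GP plate 1. The 0 of 56 cells on SAG plate 2 allows a share of up to 5.36% and a level of up to 0.290 CPM. COR was higher than SAG by the rule (log2 ratio SAG over COR -1.58), and without SAG plate 2 this ratio was -0.37 and the rule was not met.

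**Figure D4:**
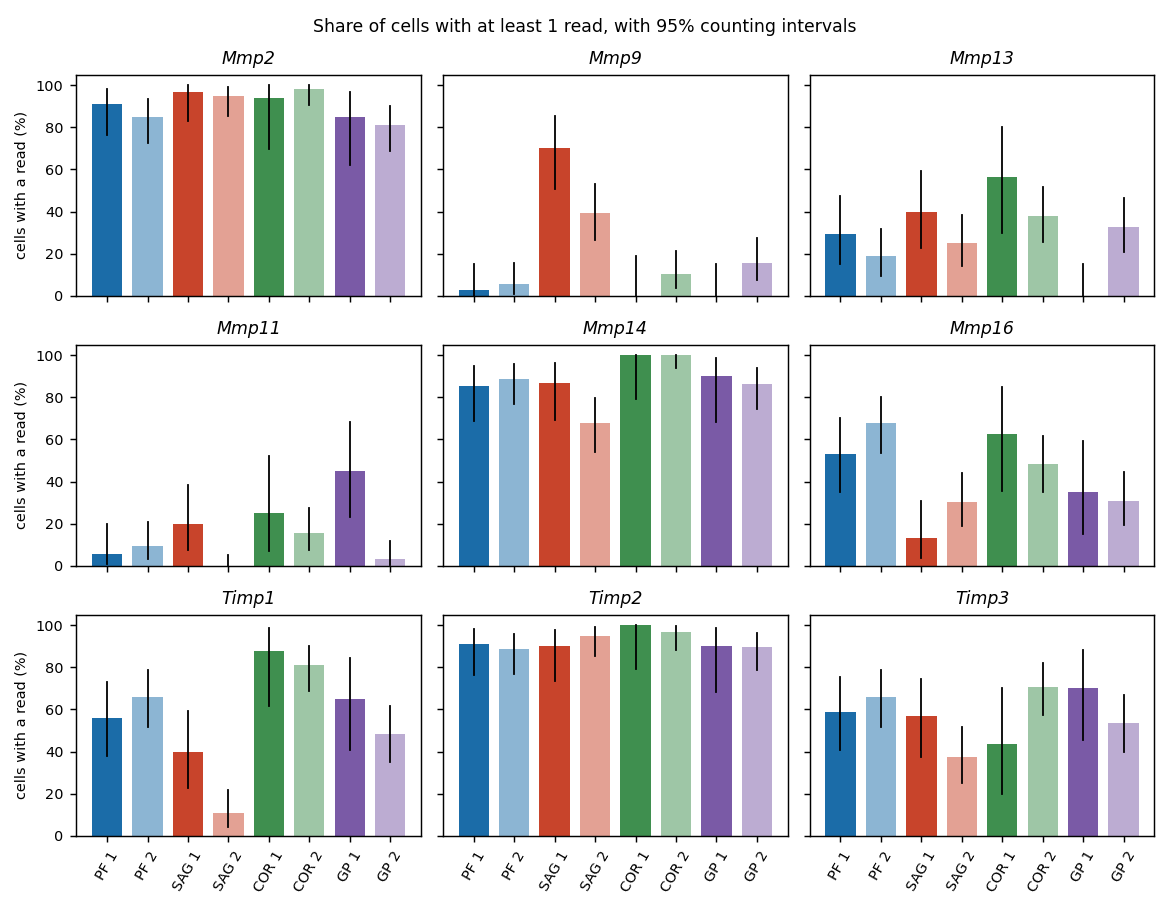
Share of cells with at least 1 read of each gene (percent) on the 8 plates, dark bars for plate 1 and light bars for plate 2, with 95% exact binomial intervals as black lines (for a share of 0, the upper limit that 3 counts allow). Mmp2, Mmp14 and Timp2 were read in most cells of every plate, at 67.9% or more, and Mmp9 in 70% and 39.3% of SAG cells and at most 15.5% of cells elsewhere.

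Of the inhibitors, Timp1, which binds pro-Mmp9 as well as active enzymes, had the steadiest differences. It had 227 and 321 CPM on the PF plates, 293 and 17.4 on the SAG plates, 522 and 438 in COR, and 93.9 and 78.7 in GP. COR was the highest tissue on both plates, and both GP plates were below every plate but SAG plate 2. COR was 5.43-fold above GP (log2 ratio 2.44, plate ratios 2.21 to 2.71) and PF 3.69-fold above GP (1.88, plate ratios 1.26 to 2.01), and both held in 12 of 12 alternatives. The difference between COR and PF (log2 ratio PF over COR -0.56) had 4 plate ratios of one sign and stayed under the 2-fold limit. COR was also above SAG with all plates (SAG over COR -1.80), and without SAG plate 2 this ratio was -0.61 and no longer met the rule, while SAG was then higher than GP (SAG over GP 1.83). Timp1 was read in 82.4% of COR cells (71.8% to 90.3%), 62.1% of PF (51% to 72.3%), 52.6% of GP (40.9% to 64%) and 20.9% of SAG cells (12.9% to 31%). In COR all 19 cells with Ibsp reads were among the 61 with Timp1, and none among the 13 without it. Ibsp was read in 42.6% of PF cells with Timp1 and 12.1% of those without it, and in 27.8% and 5.88% of SAG cells. GP showed no such difference, with 22% and 24.3%.

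Timp2, the partner of Mmp14 in activating pro-Mmp2, was read in 300 of 325 cells. Its level was 735 and 607 CPM on the PF plates, 1891 and 8362 on the SAG plates, 1258 and 973 in COR, and 1378 and 888 in GP. Both SAG plates were above all 6 others, as for Mmp2. SAG was 9.14-fold above PF (log2 ratio PF over SAG -3.19, plate ratios -3.78 to -1.36), and its ratios over COR and GP were 2.53 and 2.57. Without SAG plate 2 the ratios were -1.58, 0.92 and 0.96, so only that to PF stayed past the limit of 2-fold. With Rn45s counted in the total, the rule was likewise met only against PF. PF had the least Timp2 on both plates, and its difference from COR (log2 ratio PF over COR -0.66) had 4 plate ratios of one sign and was under 2-fold.

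Timp3, the inhibitor that stays bound to the matrix, had 305 and 803 CPM on the PF plates, 299.8 and 505 on the SAG plates, 304 and 552 in COR, and 603 and 436 in GP. The levels of every tissue overlapped those of the others, and it met the rule in no pair with all plates. Without SAG plate 2, PF was higher than SAG (log2 ratio 1.23), with 1 of the plate ratios at 0.02. Timp3 lies inside Syn3, which runs on the opposite strand and shares 1733 exonic bases with it. The use of strand in counting was not given in the sources used here, so reads of the pair could not be told apart, and Syn3 itself had 0.0351 to 14.6 CPM in the 4 tissues.

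To set genes beside each other, levels were divided by the exonic length in the mouse annotation of build mm9. Per kilobase, Mmp13 led in PF (815 CPM per kb), COR (590.5 CPM per kb) and GP (859 CPM per kb), each time followed by Mmp2 with 459, 562 and 737. This order did not hold on PF plate 2, with 272 CPM per kb of Mmp13 and 490 of Mmp2, or on GP plate 1, with 0 and 734. In COR the level of Mmp13 was 849.6 CPM without its top cell, in place of 1579.5, and in GP the top cell gave 37.5% of its reads. Without that cell Mmp13 was below Mmp2 per kilobase in both COR and GP, so its lead there rested on 1 cell each. In SAG, Mmp2 led with 2912 CPM per kb, followed by Timp2 with 1483, Mmp9 with 1148 and Mmp13 with 969. Timp1 was the inhibitor with the highest level per kilobase in PF (341) and COR (503), while Timp2 was in SAG and GP (1483 and 250). Timp2 made 88.4% of the summed level of the 3 inhibitors per kilobase in SAG, 57% on plate 1 and 96.3% on plate 2, against 62.7% in GP, 31.2% in COR and 27.5% in PF. The summed level of the 6 enzymes over that of the 3 inhibitors, both per kilobase, was 7.73 and 1.88 on the PF plates, 7.35 and 2.39 on the SAG plates, 1.37 and 2.05 in COR, and 2.22 and 5.81 in GP. The ratios of the tissues overlapped, and the order of the plates followed Mmp13 in PF and GP.

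Of the 9 genes, 2 share a chromosome of build mm9, Mmp11 (chr10:75385967-75400678, - strand) and Timp3 (chr10:85763117-85812251, + strand). Mmp9 lies at chr2:164766280-164781350, Mmp16 at chr4:17780040-18046292, Mmp2 at chr8:95351227-95377316, Mmp13 at chr9:7272514-7283333 and Mmp14 at chr14:55050441-55060095, all on the + strand. Timp2 lies at chr11:118162383-118217054 on the - strand and Timp1 at chrX:20447292-20451861 on the + strand, inside Syn1. The exons of Timp1 and Syn1 do not overlap. Read counts cover whole genes, so no isoform was told apart.

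Reads of the members were often found in the same cells. All of Mmp2, Mmp14 and Timp2, the 3 genes of the pro-Mmp2 activation complex, were read in 257 of 325 cells (79.1%), 94.6% of those in COR, 78.2% in PF, 73.3% in SAG and 71.8% in GP. The median cell had reads of 5 of the 9 members, and the number ran from 0 to 9. Over the 8 plates the log2(CPM+1) of Mmp2 went with that of Timp2 (Pearson r 0.92) and against that of Timp1 (r -0.85). SAG plate 2 is the extreme point in all 3 genes, and the plates are no independent samples, since each tissue gave 2 of them.

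Over the same 8 plates the 3 genes most like Mmp9, among 10685 others, were Lect1, a cartilage protein gene (Pearson r 0.95), Fam101a (0.94) and Ppargc1a (0.94), and over the 6 plates without SAG the values were 0.91, 0.90 and 0.84. Those most like Mmp2 were Rab31 (0.99), Myo1c (0.98) and Acp2 (0.98). For Timp2 they were Trak2 (0.99), Rapgef1 (0.97) and Paics (0.97), and for Timp1 Col13a1 (0.97), Ndufaf2 (0.97) and Snx24 (0.96). Mmp13 was most like Ift88 (0.98), Mmp14 like Tcf4 (0.98), Mmp16 like Tspan11 (0.99), Mmp11 like Tpr (0.97) and Timp3 like Nudcd3 (0.95). With 8 points and this many genes, values of this size describe the plates and nothing more.

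The other genes of the family were little expressed. Of 18 other MMP and TIMP genes, 11 had no read in PF and COR and 12 had none in SAG and GP, and 4 reached 10 CPM in a tissue. Only Mmp23, a small enzyme without the usual haemopexin domain, passed 50 CPM. It had 313 and 238 CPM on the PF plates, 72.6 and 17.2 on the SAG plates, 378 and 257 in COR, and 203 and 182 in GP. It was thus lowest in SAG, where Mmp9 was highest, on both plates. Mmp23 met the rule as lower in SAG than in PF, COR and GP.

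Genes that activate or clear these enzymes gave 13 testable members of 14, of which 4, 3, 2, 7, 3 and 3 met the rule in the 6 pairs of tissues, in the order given above, in which 29.2%, 11.9%, 16.2%, 31.5%, 30.7% and 13.4% of all genes did. Serpine2, an inhibitor of plasmin-forming proteases, had 1812 and 1671 CPM on the SAG plates, 1419 and 1586 in GP, 1347 and 762 in PF, and 830 and 746 in COR, and it was higher in SAG and in GP than in COR. Bsg, the inducer of metalloproteinases also called basigin, had 623 to 1069 CPM on 7 plates and 23.5 CPM on SAG plate 2. Lrp1, the receptor that takes up Mmp2, Mmp9 and Mmp13, showed the reverse, with 95.1 to 305 CPM on 7 plates and 1050 CPM on SAG plate 2. Reck, a membrane inhibitor of Mmp2, Mmp9 and Mmp14, had 71.3 to 171 CPM on 7 plates and 431 on SAG plate 2. Cd44, the hyaluronan receptor that can hold Mmp9 at the cell surface, was lowest in SAG with 84.1 and 11.9 CPM and highest in COR with 231 and 384. Mrc2, a collagen uptake receptor, was higher in SAG, at 254 and 247 CPM, than in COR and GP.

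Of 25 ADAM and ADAMTS proteinases 21 could be compared, and 6, 2, 9, 5, 11 and 3 met the rule in the same order of pairs, beside the same shares of all genes (29.2%, 11.9%, 16.2%, 31.5%, 30.7% and 13.4%). Adamts2, which trims the N-terminal propeptide of fibrillar collagens, had 386 and 541 CPM on the PF plates, 97.3 and 7.16 on the SAG plates, 149 and 332 in COR, and 334 and 183 in GP, and SAG was lower than each other tissue. Adamts3, its relative, went the other way and was highest in SAG with 74.5 and 352 CPM against 21.5 to 61.5 elsewhere. Adamts12 had 430 CPM on SAG plate 2 and 1.82 to 50.1 on the other 7 plates. Of 10 further matrix proteinases 9 could be compared, and 3, 0, 0, 1, 3 and 0 met the rule, again beside those shares. Ctsb, a lysosomal cathepsin, had 708 to 1499 CPM on 7 plates and 219 on SAG plate 2, and Ctsd, Ctsl and Fap were also lowest there. Htra1, a secreted serine protease, had 2229 CPM on SAG plate 1, against 46.9 on plate 2 and 509 to 991 elsewhere.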

How the data were processed

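By the paper's account, the authors sorted single cells into plates, prepared SMART-seq2 type libraries with Nextera XT and sequenced paired ends, without molecular identifiers. The labels name another RNA preparation and sequencing instrument than the paper does, and this was not resolved. The deposited files hold raw read counts per gene and cell, 1 table for each of 8 plates. The submitters' processing notes name STAR 2.5.3a, HTSeq, Seurat 2.3.0, R 3.4.4 and build mm9 with no roles. The annotation and use of strand were not given in the sources used here. Groups were taken from the source names, and 0 cells had counts identical to those of another.

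Cells with at least 500 genes and 10000 reads were kept. Counts were summed per tissue and plate without Rn45s and given as CPM, with exact Poisson or binomial 95% intervals that cover counting error only. For a count of 0 the limit is 3 counts. Ratios used a pseudocount of 1. With 1 sample per tissue no test was run. The call rule was run on simulated plates with known changes in SAG. Their plates of 1 tissue differed less than the real ones, so that run says little about the calls here. Genes were named where they were members, were among the 6 highest of a list with at least 50 CPM, or were among the 3 genes most like a member over the plates. Markers at 0, genes in the joint counts and overlapping genes were named beside them. The members and lists were chosen with earlier results of these data known. Exonic lengths came from GENCODE annotation of mm9. Python 3.11.15, numpy 2.4.6, pandas 2.3.3, scipy 1.17.1 and, for TMM factors, edgeR 4.0.16 were used. No column was left without a cell.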

Additional observations from a re-analysis of the deposited data

Results flagged for a closer look

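The 35 cells below the filter entered no comparison and still held reads of 7 members. They had 11556 reads of Mmp2 in 8 cells, 5968 of Mmp9 in 3 cells, 14594 of Mmp13 in 4 cells and 2583 of Timp2 in 8 cells. They also had 902 reads of Timp3, 202 of Timp1 and 180 of Mmp14, and none of Mmp11 or Mmp16. A single cell gave 5947 of the Mmp9 reads, and a single cell 14335 of those of Mmp13.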

How the results depend on the processing

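No paired analysis was possible because each tissue had plates of its own and no test was run. The count of members that met the rule between 2 tissues was recomputed under 12 alternatives. With plate 1 cells alone, where the rule is the 2-fold limit only, it was 6 for PF against SAG, 5 for PF against COR, 5 for PF against GP, 6 for SAG against GP and 3 for COR against GP. With plate 2 cells alone it was 6, 2, 5, 7 and 4 for the same pairs and 8 for SAG against COR. Leaving out SAG plate 2, or asking for 1500 genes and 50000 reads a cell, a filter that 0 cells of the plate passed, gave 5 for PF against SAG and 3 for SAG against COR. The other 57 of the 72 counts stayed within 1.5 times. Mmp9 as higher in SAG than in PF, COR and GP, Timp2 as higher in SAG than in PF, and Timp1 as lower in GP than in PF and COR were called under all 12 alternatives. Mmp2 as higher in SAG was lost without SAG plate 2, under the stricter filter and with Rn45s counted, and against GP also with plate 1 cells alone. Timp2 as higher in SAG than in COR and GP was lost under all of these alternatives, plate 1 cells alone included. Of 594 log2 ratios 70 moved by more than the spread of their plate ratios and 0 of those that had met the rule changed sign. Of 144 shares of cells 18 left their interval. Thinning each cell to 100000 reads left all 36 shares within their intervals.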
